A study of Mus musculus with 2 samples.

Results

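The mir-200 family (Mir200a, Mir200b, Mir200c, Mir141 and Mir429) together with Mir203 and Mir205 makes up a set of 7 microRNA genes known from epithelia. They were chosen by gene symbol, through the Ensembl identifiers of the count files, from the 1973 counted microRNA genes, and all 7 were found. The source was the midbrain of healthy B6NCrl mouse embryos at embryonic day 10.5, with males and females pooled. There is 1 group of 2 libraries of RNA under 30 nt, replicate 1 from a pool of 69 embryos and replicate 2 from a pool of 51. No genotype, treatment or second tissue was compared. The values therefore describe levels and the spread between 2 pools, and any test between the libraries compares those libraries and not conditions. In such bulk tissue, fewer cells of a type and less RNA per cell cannot be told apart.

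A microRNA is cut from a hairpin precursor into a strand of about the length of the reads, and its bases 2 to 8, the seed, pair with target messenger RNAs. The mir-200 family is known for repressing Zeb1 and Zeb2, transcription factors that in turn repress the mir-200 genes and epithelial adhesion genes such as Cdh1. In the mouse midbrain and hindbrain, miR-200 has also been described in neural progenitors, where it represses Sox2 and E2f3. Mir203 is known from skin, where it limits the progenitor factor p63, and Mir205 from the basal and progenitor cells of skin and glands.

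The mature strands best known for the 7 genes are shown first because they decide which genes share targets. They are taken from RefSeq (build GRCm38.p6, the build of mm10), in which all 7 genes matched. The seed is in capitals, and lines that share a seed stand together. They are written 5′ to 3′.
miR-200b-3p: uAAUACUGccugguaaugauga
miR-200c-3p: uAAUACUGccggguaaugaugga
miR-429-3p: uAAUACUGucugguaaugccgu
miR-200a-3p: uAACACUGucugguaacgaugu
miR-141-3p: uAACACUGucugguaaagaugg
miR-203-3p: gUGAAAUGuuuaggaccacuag
miR-205-5p: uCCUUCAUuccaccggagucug

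The family falls into 2 seed groups that differ at 1 base of the seed. Compared with miR-200b-3p and counted from 1 at the 5′ end, miR-200a-3p has the substitutions U4C, C9U, U17C and A22U, of which the first lies in the seed. miR-141-3p differs from miR-200a-3p by C17A and U22G, both outside the seed, and miR-200c-3p differs from miR-200b-3p by U11G and A22G over the 22 bases compared. No other mature microRNA of the RefSeq table has the seed of either group, and no other has that of miR-203-3p or miR-205-5p. The first 18 bases of both annotated arms of each mir-200 gene and of Mir205 were found in no hairpin of the table but their own, and in GENCODE M21 only in the gene itself or a transcript that overlaps it. For Mir203 the one other hairpin was that of Gm51289, which lies on the opposite strand of the same locus. The rest of the genome was not searched. This bears on the counts, because reads that mapped to several places are not in them. The annotated arms of the 7 genes are 21 to 23 nt long, so levels between genes were not scaled by length. No other correction between genes was made, so differences in level between genes are differences in counted reads. How evenly the libraries captured different sequences was not tested.

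The family lies at 2 loci. On chromosome 4, minus strand, Mir200b (ENSMUSG00000065549.2, chr4:156055681-156055750), Mir200a (ENSMUSG00000065400.1, chr4:156054896-156054985) and Mir429 (ENSMUSG00000065427.1, chr4:156053905-156053987) span 1846 bases, in that order of transcription. Mir200b and Mir200a lie in introns of the long noncoding gene Gm13648 and Mir429 in an exon of it, and all lie within introns of Ttll10. On chromosome 6, minus strand, Mir200c (ENSMUSG00000065462.2, chr6:124718322-124718390) and Mir141 (ENSMUSG00000065474.1, chr6:124717914-124717985) are 336 bases apart in introns of Gm15884, and Mir141 also overlaps an exon of Gm29008. Mir203 (ENSMUSG00000065574.1, chr12:112130880-112130955, plus strand) overlaps no other gene of GENCODE M21. Mir205 (ENSMUSG00000065533.1, chr1:193507463-193507530, minus strand) lies in an exon of 4631405K08Rik, which RefSeq names Mir205hg. Coordinates are those of M21 on mm10, and the identifiers of Mir200b and Mir200c have a later version there than in the counts.

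The replicate 1 library held 7810040 reads, of which 3297835 were assigned to a microRNA gene, and the replicate 2 library held 9423767, of which 3682410 were assigned. Multiply mapped reads made up 30.9% and 29.5%. Levels are given as CPM, the reads per 1000000 gene-assigned reads of the library. Intervals cover counting error only, as the reads carry no molecular identifiers and cannot be taken as independent molecules. Markers of the labelled tissue were present unevenly. Mir92b, known from neural progenitors, had 21245 and 25352 CPM, while Mir9-3 had 137 and 66.8 CPM and Mir9-2 had 3 and 4 reads. Genes of the mir-9 group have copies at other loci, so that multiply mapped reads, which are in no gene count, limit what their values show.

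All 7 epithelial genes reached 10 reads or more in each library, the limit for detection used here, as did 20.2% of all counted genes. Together they had 11202 reads in replicate 1 and 15070 in replicate 2. That was 0.340% of the gene-assigned reads in replicate 1 (95% Wilson interval 0.333 to 0.346%) and 0.409% in replicate 2 (0.403 to 0.416%). The intervals of the libraries did not overlap, but they treat reads as independent and so can be too narrow. Mir205 made up 35.7% and 36.0% of these reads, while the share of Mir203 was 25.7% and 16.3% and that of the mir-200 family 38.6% and 47.8%. By mean level, the genes ranked from 97 (Mir205) to 258 (Mir200a) among the 1973 counted genes, of which 399 were detected and 1204 had no reads. Mir335, the most abundant gene, had 94.9 times the mean CPM of Mir205.

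**Figure D1:**
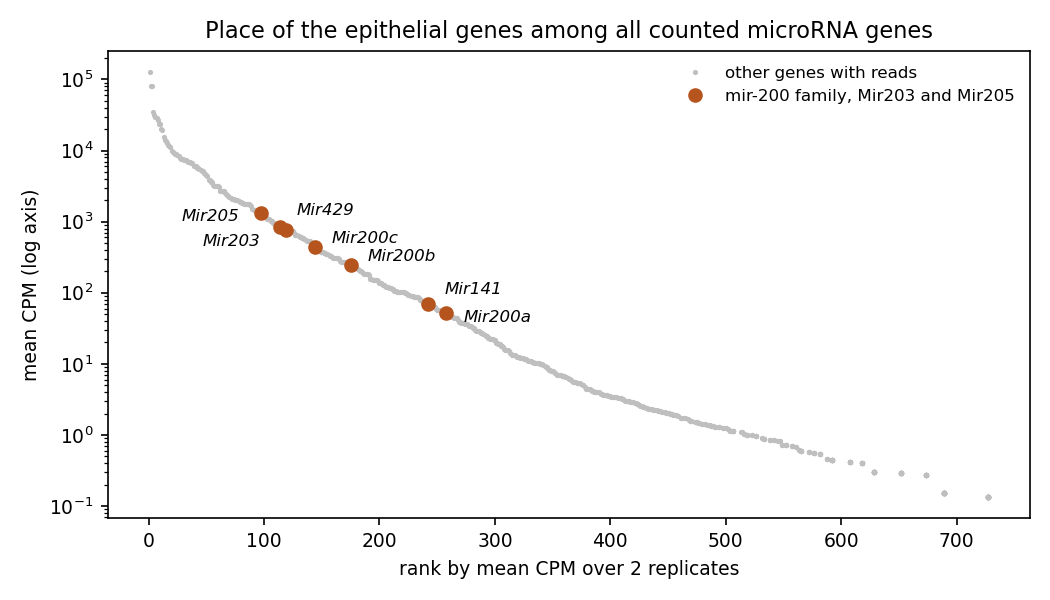
Mean CPM (log axis) of each counted gene with reads against its rank, with the 7 epithelial genes as large points and the others in grey. The 7 genes lie between ranks 97 and 258 of 769 genes with reads, in the upper part by rank and near the middle of the log axis.

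Mir205 was the most abundant of the 7. It had 4000 reads (1213 CPM) in replicate 1 and 5420 (1472 CPM) in replicate 2, a mean of 1342 ± 183 CPM (SD, n = 2). Mir429 came next by mean, with 2195 reads (666 CPM) and 3657 reads (993 CPM), a mean of 829 ± 232 CPM. Mir203 had 2875 reads (872 CPM) in replicate 1 and 2454 (666 CPM) in replicate 2, a mean of 769 ± 145 CPM. The order of Mir429 and Mir203 was the opposite in the 2 libraries, and their means differed by less than their spread. Mir205 stood above both in each library, and its distance from Mir429 exceeded the sum of their SDs.

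Mir200c, the more abundant gene of the chromosome 6 locus, had 1090 reads (331 CPM) in replicate 1 and 2006 (545 CPM) in replicate 2, a mean of 438 ± 151 CPM (SD, n = 2). Mir200b had 660 reads (200.1 CPM) and 1071 reads (291 CPM), a mean of 245 ± 64.1 CPM. Mir200c was higher than Mir200b in both libraries, but their means differed by less than the sum of their SDs. Mir203 stood above Mir200c beyond that sum, and so did Mir200b above Mir141, by 3.54 times. Mir141 had 183 reads (55.5 CPM) in replicate 1 and 306 (83.1 CPM) in replicate 2, with a mean of 69.3 ± 19.5 CPM. Mir200a had 199 reads (60.3 CPM) and 156 reads (42.4 CPM), with a mean of 51.4 ± 12.7 CPM. These were the lowest genes of the set, and their order was the opposite in the 2 libraries. Mir205 had 26.1 times the mean level of Mir200a.

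**Figure D2:**
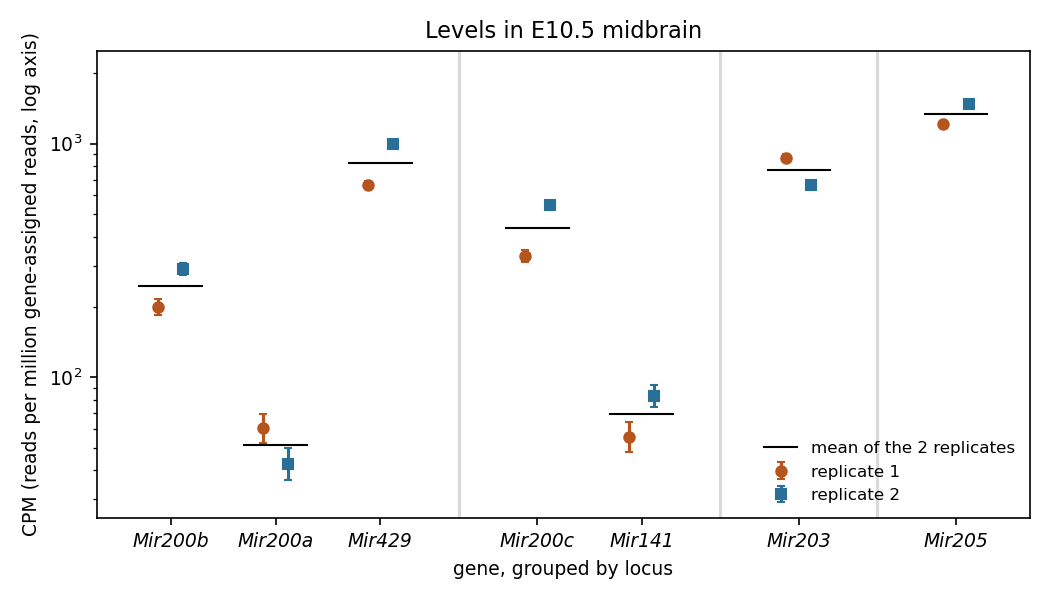
CPM (log axis) of the 7 genes, grouped by locus, in replicate 1 (circles) and replicate 2 (squares), with 95% Wilson counting intervals and the mean as a line. Mir200a and Mir203 are higher in replicate 1, and the other 5 genes are higher in replicate 2.

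The genes of the first seed group therefore carried most of the family's counted reads. Mir200b, Mir200c and Mir429, with the seed AAUACUG, summed to 3945 reads (1196 CPM) in replicate 1 and 6734 (1829 CPM) in replicate 2, a mean of 1512 ± 447 CPM (SD, n = 2). Mir200a and Mir141, with the seed AACACUG, summed to 382 reads (116 CPM) and 462 reads (125 CPM), a mean of 121 ± 6.81 CPM. The first group had 10.3 times the reads of the second in replicate 1 and 14.6 times in replicate 2. The split holds at both loci, since each has 1 gene of the second group and that gene was the lowest of its locus in each library. The counts are per gene and do not separate the arms of a hairpin, so these sums are those of genes and not of mature strands. They also leave out multiply mapped reads. The strands shown for Mir200a and Mir141 first differ at C17A, but those of Mir200b and Mir429 at C9U and of Mir200b and Mir200c at U11G. Short reads could thus match both genes of the second group more readily. The search of 18 bases covers neither shorter reads nor mismatches, and whether such loss lowered the second group was not tested. The chromosome 4 locus had 2.40 times the reads of the chromosome 6 locus in replicate 1 and 2.11 times in replicate 2.

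Within the chromosome 4 locus, Mir429 made up 71.9% of the reads in replicate 1 (95% Wilson interval 70.3 to 73.4%) and 74.9% in replicate 2 (73.6 to 76.1%). These intervals narrowly missed each other. Mir200b made up 21.6% (20.2 to 23.1%) and 21.9% (20.8 to 23.1%), with overlapping intervals. Mir200a made up 6.52% (5.69 to 7.45%) in replicate 1 and 3.19% (2.74 to 3.73%) in replicate 2, and its intervals did not overlap. Mir200a thus lay below its neighbours in both libraries, and further below in replicate 2. At the chromosome 6 locus, Mir200c made up 85.6% (83.6 to 87.4%) and 86.8% (85.3 to 88.1%), with the rest from Mir141, and the intervals overlapped.

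**Figure D3:**
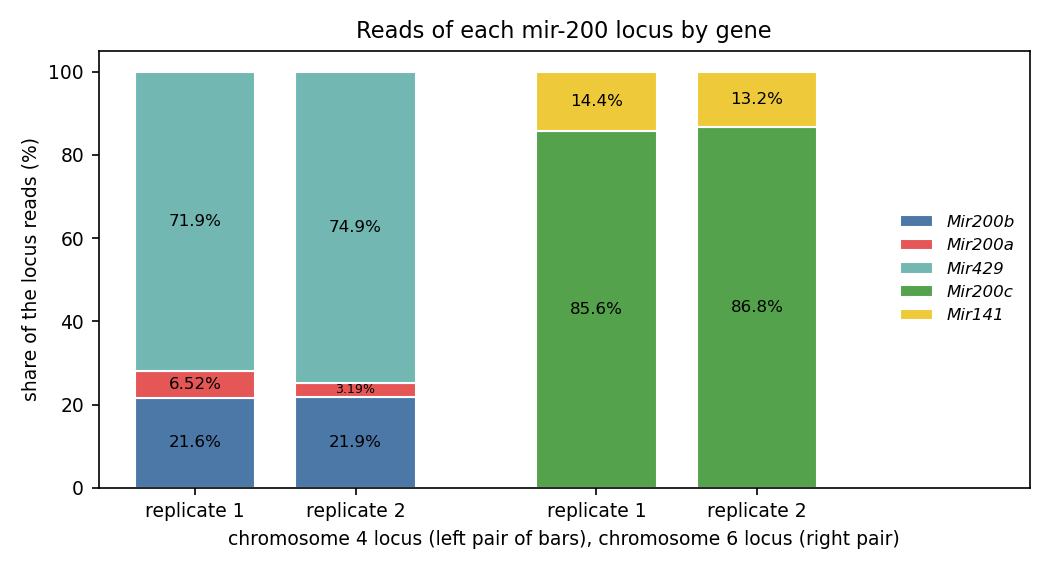
Share of the reads of each mir-200 locus (%) by gene, in replicate 1 and replicate 2, for the chromosome 4 locus on the left and the chromosome 6 locus on the right. The part of Mir200a is 6.52% in replicate 1 and 3.19% in replicate 2, while Mir200b stays at 21.6% and 21.9%.

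Ratios between the libraries were computed as replicate 1 over replicate 2, with library sizes scaled by TMM. The 4 genes Mir200b, Mir429, Mir200c and Mir141 were lower in replicate 1 by similar amounts, with log2 ratios of −0.54, −0.58, −0.73 and −0.59. Their 95% counting intervals as ratios were 0.621 to 0.756, 0.633 to 0.704, 0.561 to 0.651 and 0.551 to 0.802. Mir205 was lower in replicate 1 by less, with a ratio of 0.821 (0.788 to 0.856). Mir200a and Mir203 were higher in replicate 1, with ratios of 1.42 (1.15 to 1.76) and 1.30 (1.24 to 1.38). Across the 338 counted genes of mean CPM 10 or more, the SD of the log2 ratio was 0.57 and the median 0.03. All of the 7 but Mir200c, Mir141 and Mir429 were hence within that SD of 0.

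The ratio was past 1.5-fold for 2 of the 7, Mir200c and Mir141, both lower in replicate 1, against 17.2% of the 338 genes in either direction (8.28% higher and 8.88% lower in replicate 1). Mir429 and Mir141 lie on either side of this threshold by less than 0.01 on the log2 scale. The count was 1 with library totals for scaling or with the second count column alone. Two-sided exact binomial tests on the reads, with Benjamini-Hochberg adjustment over 485 genes, called all 7, of which 5 were lower and 2 higher in replicate 1. The same tests called 49.7% of all genes tested, 23.1% lower and 26.6% higher in replicate 1, so that a call is common among these genes. Genes were tested from 10 reads in sum, while Mir200a, the lowest of the 7, had 199 and 156 reads. A call comes more readily with more reads, so the 49.7% is not a share at like depth. The adjusted p was largest for Mir200a, at 0.00303, and 3.42e-05 for Mir141. Nothing says how much of the spread between these libraries is technical, and there is no further pool to set it against.

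**Figure D4:**
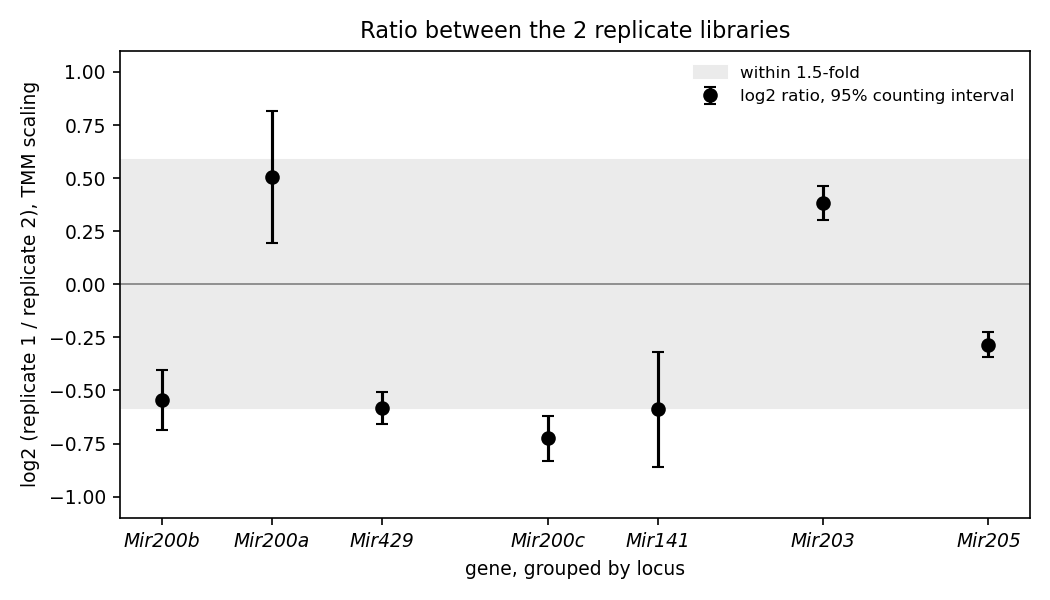
Log2 ratio of replicate 1 over replicate 2 for the 7 genes with 95% counting intervals, grouped by locus, and the range within 1.5-fold in grey. Mir200b, Mir429, Mir200c and Mir141 lie between −0.54 and −0.73, and Mir200a and Mir203 above 0.

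Mir200a and its neighbours on chromosome 4 went in opposite directions between the libraries. The ratio of Mir200b to Mir200a reads was 3.32 in replicate 1 and 6.87 in replicate 2, an odds ratio of 0.483 for replicate 1 over replicate 2 (95% exact interval 0.381 to 0.613). For Mir200a to Mir429 it was 0.0907 and 0.0427, an odds ratio of 2.13 (1.70 to 2.66). These ratios are taken within a library and do not depend on the scaling. Mir200b to Mir429 had an odds ratio of 1.03 (0.918 to 1.15), and Mir200c to Mir141 one of 0.909 (0.743 to 1.11). The intervals of these 2 pairs include 1, so that a difference was not detectable at this depth.

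The pairs with Mir200a also stood apart from other pairs of neighbouring microRNA genes, in a comparison chosen after the values were seen. There were 107 pairs of adjacent genes of mean CPM 10 or more on 1 strand within 10 kb, 3 of them in the mir-200 loci. The log2 ratios of Mir429 and Mir200a differed by 1.09 and those of Mir200a and Mir200b by 1.05. Among the 104 other pairs the median difference was 0.17, and none exceeded either value. The next was 0.76, for Mir181a-1 and Mir181b-1. Genes below a mean CPM of 10 were passed over, so the genes of a pair need not be directly adjacent. Genes of a cluster with another gene of mean CPM 10 or more between them were not paired. Of such genes, Mir539 and Mir668 had log2 ratios of −0.65 and 0.47, which lie further apart than those of either pair with Mir200a. Mir141 and Mir200c differed by 0.14, which 63 of the other pairs exceeded. Both large differences rest on the reads of Mir200a, 199 and 156. When genes down to a mean CPM of 1 were taken in, 9 of 126 other pairs exceeded the difference of Mir429 and Mir200a. The level of Mir200a relative to Mir429 was less unusual, since 33 of the other pairs had a larger fold between their mean levels than the 16.1 of this pair.

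**Figure D5:**
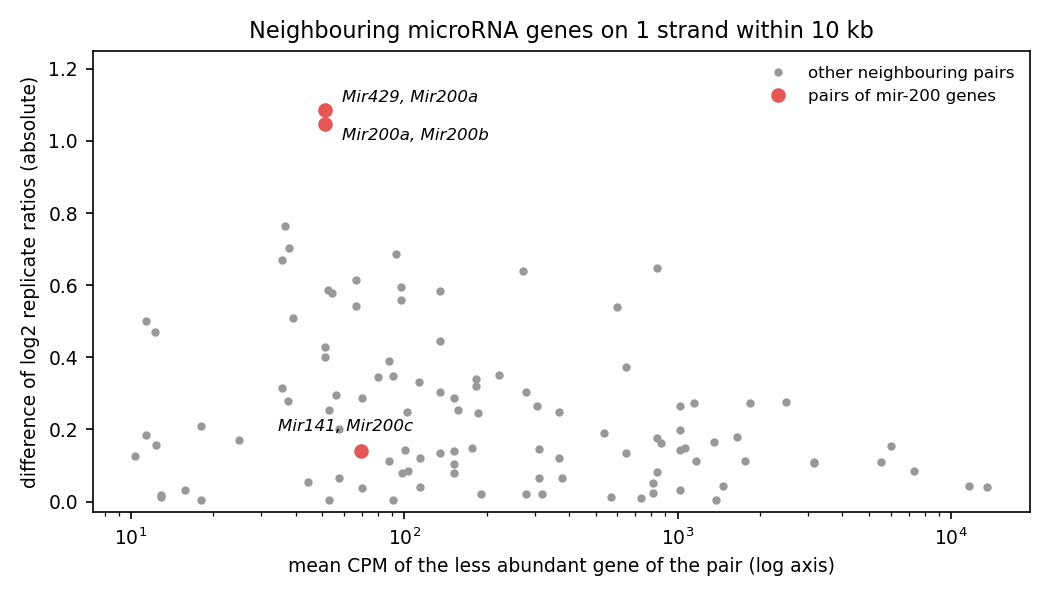
Absolute difference of the log2 replicate ratios of adjacent microRNA genes against the mean CPM of the less abundant gene (log axis), for 3 pairs in the mir-200 loci (large points) and 104 other pairs (grey). Both pairs with Mir200a lie above 1.0, and the highest grey point is at 0.76.

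The hairpins show where the arms of Mir200a and Mir429 lie, with both annotated arms in capitals (RefSeq, GRCm38.p6, minus strand). They are shown because the pair differed most.
Mir200a: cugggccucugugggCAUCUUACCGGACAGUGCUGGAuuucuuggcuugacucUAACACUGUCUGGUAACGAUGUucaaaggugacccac
Mir429: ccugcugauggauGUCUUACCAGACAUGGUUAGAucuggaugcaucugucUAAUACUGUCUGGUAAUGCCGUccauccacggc

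Mir203 was the only one of the 7 with reads in the last count column, which was read as the opposite strand. It had 67 such reads in replicate 1 (2.33% of its reads, 20.3 CPM) and 74 in replicate 2 (3.02%, 20.1 CPM). The other 6 genes had 0 of 8327 reads in replicate 1 and 0 of 12616 in replicate 2, which allows shares of up to 0.0360% and 0.0238%. At least 99% of reads were in the second column in both libraries for 6 of the 7, and for 94.5% of all detected genes. RefSeq places a microRNA gene, Gm51289 (also named Mir203b), on the minus strand at chr12:112130887-112130946, wholly within the Mir203 hairpin. No counted row carries either name. The count table does not show whether the opposite-strand reads come from it. Its annotated strands, with the seed in capitals, differ from miR-203-3p in their seeds.
miR-203b-3p: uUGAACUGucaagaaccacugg
miR-203b-5p: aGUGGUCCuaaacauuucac
The gene's own strand had 2808 reads in replicate 1, a share with a 95% Wilson interval of 97.1 to 98.2%, and 2380 reads in replicate 2, with an interval of 96.2 to 97.6%. These intervals overlap, so that a difference in the strand split was not detectable at this depth.

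The window from 250 bases before to 50 after the start of Gm13648, 4052 bases upstream of the Mir200b hairpin, is shown because its transcript spans the 3 chromosome 4 genes (RefSeq, chr4:156059753-156060052, GRCm38.p6, minus strand). Capitals mark CACCTG, the E-box bound by ZEB and SNAI repressors, which was searched with its reverse complement CAGGTG.
Gm13648: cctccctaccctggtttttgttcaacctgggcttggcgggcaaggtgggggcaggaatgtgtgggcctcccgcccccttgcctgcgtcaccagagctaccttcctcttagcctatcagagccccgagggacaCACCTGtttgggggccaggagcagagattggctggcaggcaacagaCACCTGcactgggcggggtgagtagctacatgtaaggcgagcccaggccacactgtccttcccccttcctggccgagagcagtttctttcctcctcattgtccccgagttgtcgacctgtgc
The window holds 2 matches, beginning 118 and 72 bases before the start, and that of Mir205hg holds 1, at 193 bases before. Of 32851 RefSeq windows of this length, 20.2% held at least 1 match and 2.88% at least 2. A match is a run of letters and not evidence of binding in this tissue.

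Other microRNAs known from particular cell types give the scale of the 7 genes. A list of 10 other epithelial microRNAs came to 0.159% ± 0.0126 of all reads assigned to genes (SD, n = 2), and 6 of the 10 were detected. Mir34c and Mir449a, known from multiciliated epithelia, led it, with 1121 and 1081 CPM for Mir34c and 152 and 355 CPM for Mir449a. Of its 6 genes of mean CPM 10 or more, 2 were past 1.5-fold, against 17.2% of the 338 genes of all kinds. These were Mir449a (log2 ratio −1.23) and Mir31 (−0.59), both lower in replicate 1. Mir194-2 lay in the other direction at 0.54, Mir34b was at −0.23, and Mir34c and Mir192 were near 0, at 0.05 and −0.04. The 4 microRNAs of sensory epithelia and placodes held 0.680% ± 0.116. Mir182 had 2720 and 2593 CPM and Mir183 had 1828 and 2886 CPM. Mir183 and Mir375 were lower in replicate 1 past 1.5-fold. That threshold is an absolute log2 ratio of 0.585, which Mir375 (−0.589) and Mir31 (−0.586) barely passed and Mir96 (−0.583) barely missed. The log2 ratios of Mir183, Mir375 and Mir96 were −0.66, −0.59 and −0.58, against 0.06 for Mir182. These values stand beside those of Mir200b, Mir429, Mir200c and Mir141, and their part in the difference between the pools was not tested.

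Lists of other tissues differed in direction between the pools. The counts past 1.5-fold in them are small, and stand against 17.2% of the 338 genes. The 7 mesenchymal microRNAs held 1.67% of the reads in replicate 1 and 1.36% in replicate 2, with 6 of 7 detected. They were led by Mir143 (8342 and 6509 CPM) and Mir214 (4136 and 3606 CPM), and 1 of 6 at a mean CPM of 10 or more, Mir199a-2, was past 1.5-fold, higher in replicate 1. Mir126a of endothelium had 26450 and 30780 CPM, a log2 ratio of −0.22. The 4 blood microRNAs with a counted row held 0.0717% and 0.0685%, with 1 of 4, Mir486, lower in replicate 1 past 1.5-fold. Of these 4, the highest were Mir451a of red cells (354 and 295 CPM) and Mir223 of myeloid cells (314 and 311 CPM). The listed Mir142 had no counted row under that name. Mir142b, which was not on the list, had a mean of 773 CPM, above each of the 4. No defining marker of these lists with a counted row was at 0 in both libraries. Of the neural list's names, 8 had a counted row, and 6 of them were detected. Of 5 at a mean CPM of 10 or more, 2 were past 1.5-fold, Mir9-3 and Mir124a-2, both higher in replicate 1. Mir124a-2 had only 56 and 36 reads, a log2 ratio of 0.78. Mir124a-3, detected but below that CPM limit with 16 and 34 reads, went the other way at −0.91. Mir128-2 was at 0.51 and Mir128-1 at −0.04. The Mir124a and Mir128 genes also have copies at other loci, so multiply mapped reads limit their values as they do for the mir-9 group. That list was led by Mir92b and Mir9-3, whose log2 ratios were −0.26 and 1.03.

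For each locus, the counted genes nearest in level were found by the distance of log2 CPM over the 2 libraries, among 614 other genes with reads in both. They were Gm23935 and Mir410 for the chromosome 4 locus, at distances of 0.09 and 0.14 from the mean of its genes. Mir493 and Mir673 were nearest to the chromosome 6 locus, at 0.33 and 0.37. Mir325 and Mir300 were nearest to Mir203, at 0.11 and 0.13, and Mir467e and Mir421 to Mir205, at 0.11 and 0.14. Likeness over 2 libraries of 1 tissue describes levels only.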

How the data were processed

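Per the files deposited with each library, the authors aligned reads to mm10 and counted them on GENCODE M4, and the unit is raw read counts per microRNA gene. Which aligner and trimming were used is not stated in these sources. Of the 3 unnamed count columns, the first is the total of the others for each gene. The first was used, and the second, with 97.4% and 97.3% of the gene-assigned reads, was taken as the gene's strand. Rows that name no gene, 57.8% and 60.9% of the reads, stayed out of library sizes. Of the 1973 identifiers, 1894 matched GENCODE M21 without their version. CPM used total gene-assigned reads. For log2 ratios, 0.5 reads were added and TMM scaling was done with edgeR 4.0.16 (R 4.3.3), and DESeq2 1.42.0 gave alternative size factors. The exact binomial test (SciPy 1.17.1) was run where the libraries summed to 10 reads or more and was adjusted by Benjamini-Hochberg at 0.05. It was also run on simulated libraries with counting error only, which cannot show how it behaves under spread between pools. The named genes are the 7, the highest 2 of each list and the nearest 2 in level of each locus. Mir31, Mir34b, Mir192, Mir194-2, Mir96, Mir375, Mir486, Mir199a-2, Mir9-2 and the Mir181 pair were added after their values were seen. So were Mir539, Mir668, Mir142b, Mir124a-2, Mir124a-3, Mir128-1 and Mir128-2. The 7 genes and the lists were chosen with earlier results of these data known. The p-values between the libraries take in counting error only, and measure neither biological nor technical spread between pools.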

Additional observations from a re-analysis of the deposited data

How the results depend on the processing

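All 28 log2 ratios of the 7 genes under 4 alternatives (DESeq2 size factors, library totals, the second count column, no filter on low counts) kept their direction and their call, with an adjusted p of at most 0.00614, and the test called 7 of 7 under each. A call was common, since in the same order it called 48.5%, 49.5%, 48.0% and 29.6% of all genes tested. Those shares include genes with far fewer reads than the 7. The number past 1.5-fold was 3 with DESeq2 size factors (17.8% of all genes), and 1 with library totals (16.3%), with the second count column (16.3%) and, of 5 genes, at a mean CPM of 100 or more (12.2%). The 7 genes held 0.430% of the reads without the most abundant gene and 0.152% when all reads of the library were the denominator, both by construction. With each replicate left out, their share was 0.340 to 0.409%, and 3 to 7 of the 7 genes kept their place in the order. For Mir429 and Mir200a, the number of other adjacent pairs that differed more stayed 0 in 4 of 5 settings chosen after seeing the data. It was 9 with genes of mean CPM 1 or more. DESeq2 size factors moved every log2 ratio by −0.03. No paired analysis was possible because there is 1 group. Depth limits Mir200a most, since it has the fewest reads of the 7 and the widest counting interval on the log2 scale.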
